A study of Mus musculus with 15 samples.

Results

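The lipoxygenase and cyclooxygenase pathway was examined through 10 genes that turn membrane fatty acids into leukotrienes, hydroxy fatty acids and prostaglandins: Pla2g4a, Alox5, Alox5ap, Lta4h, Ltc4s, Alox12, Alox15, Ptgs1, Ptgs2 and Ptgds. They were chosen by symbol as core enzymes of the pathway, though with earlier results of these data known. All 10 were found among the 55573 genes counted. RNA was sequenced from 15 trigeminal ganglia (TG), the ganglia that hold the cell bodies of corneal sensory neurons, each taken from the side of the injured eye of a 10-week-old male CD1 mouse. In every mouse the epithelium and anterior stroma of the right cornea had been removed over a 2 mm circle, so the vehicle group is an injured control, and uninjured ganglia were not analysed here. The eyes then received drops 3 times a day until the TG were taken on day 12: vehicle in 5 mice (replicates 1 to 5), the resolvin D6 standard (RvD6) in 5 mice (replicates 6 to 10) and the RvD6 stereoisomer (RvD6si) in 5 mice (replicates 11 to 15). CD1 is an outbred stock, and no genotype or allele separates the groups. The 2 lipids share their chain and its hydroxyl groups and differ in stereochemistry.

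The pathway starts when cytosolic phospholipase A2, the product of Pla2g4a, frees arachidonic acid and related fatty acids from membranes. The lipoxygenases add oxygen to these fatty acids and lead to leukotrienes, to hydroxy fatty acids and, from docosahexaenoic acid, to the resolvins, the class of lipids given here as drops. The cyclooxygenases lead to prostaglandins, and in peripheral tissue the lipoxygenase branch is known above all from blood leukocytes and platelets, while the cyclooxygenases act in many cell types, sensory ganglia included.

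On a scale corrected for length (RPKM, reads scaled to exonic length and library size, computed here), Ptgds stood far above the others, with a median of 474 over the 15 ganglia and a range of 148 to 1044. It was followed by Lta4h with a median level of 14.5 RPKM, Alox5ap with 4.07, Ptgs1 with 1.83, Pla2g4a with 1.66, Alox12 with 1.35, Alox5 with 0.664, Alox15 with 0.227 and Ltc4s with 0.126. The median of Ptgs2 was 0. In this order the range of Ptgds did not overlap that of Lta4h, whereas each later neighbour overlapped the next. Lta4h was nevertheless above Alox5ap within each of the 15 ganglia, while Ptgs1 was above Pla2g4a in 7 of 15, so the order of these last 2 genes is not resolved. Among all genes ranked by median RPKM, Ptgds was number 72 and Lta4h number 3587.

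**Figure D1:**
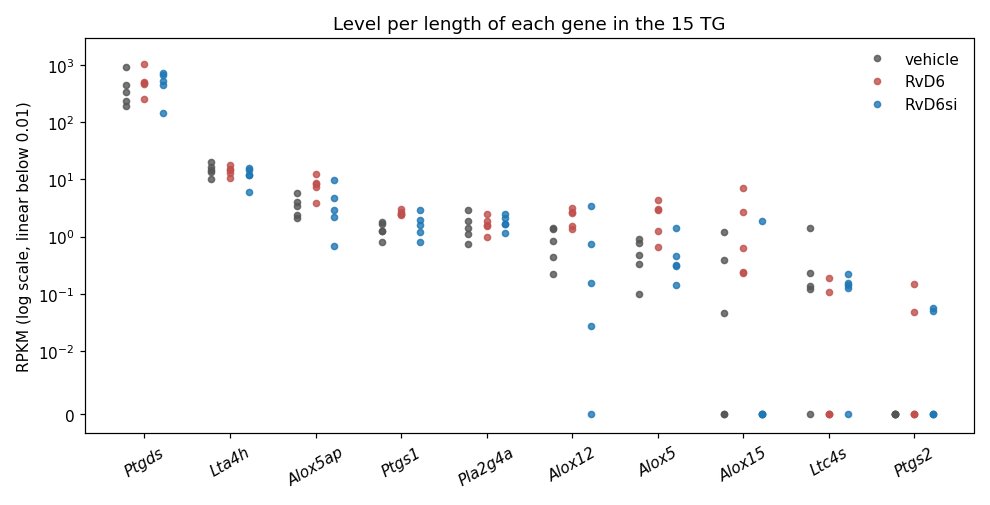
RPKM of the 10 genes (log scale, linear below 0.01), with 1 point per ganglion for vehicle (grey), RvD6 (red) and RvD6si (blue). Ptgds lies at 148 to 1044 RPKM, above every value of the other genes, and Alox12, Alox15, Ltc4s and Ptgs2 reach 0 in at least 1 ganglion.

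The promoters of 3 genes with higher mean counts in RvD6 are shown for orientation, since 2 of them, Alox5 and Alox12, also followed each other over the ganglia while Ptgs1 did not. They are the 250 bases before the start site in RefSeq on GRCm38.p6, whose table held 8 of the 10 genes and did not list Alox5ap and Alox15: Alox5 at chr6:116461179-116461428, minus strand, Alox12 at chr11:70255371-70255620, minus strand and Ptgs1 at chr2:36230176-36230425, plus strand. Capitals mark matches, on either strand, to the GC box GGGCGG and the ETS motif GAGGAA.
Alox5: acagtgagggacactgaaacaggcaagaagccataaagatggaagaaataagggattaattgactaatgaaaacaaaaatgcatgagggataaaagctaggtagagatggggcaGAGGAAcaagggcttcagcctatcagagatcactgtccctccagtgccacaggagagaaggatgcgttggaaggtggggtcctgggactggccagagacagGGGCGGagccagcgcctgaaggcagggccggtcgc
Alox12: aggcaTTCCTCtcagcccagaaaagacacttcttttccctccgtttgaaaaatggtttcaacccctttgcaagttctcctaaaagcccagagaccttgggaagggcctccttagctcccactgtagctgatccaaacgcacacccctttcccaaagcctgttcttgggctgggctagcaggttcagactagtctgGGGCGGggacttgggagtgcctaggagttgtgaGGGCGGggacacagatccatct
Ptgs1: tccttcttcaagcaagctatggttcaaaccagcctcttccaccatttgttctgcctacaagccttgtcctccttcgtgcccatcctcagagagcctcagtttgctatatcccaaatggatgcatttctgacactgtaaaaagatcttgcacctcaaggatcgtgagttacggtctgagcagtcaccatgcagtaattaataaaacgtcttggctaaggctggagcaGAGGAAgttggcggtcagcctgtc
The ETS letters occur once in each of the 3 windows and in 23.3% of 32851 windows of the same length. They also occur in the windows of Lta4h and Ptgs2, not shown here, so they are not particular to the 3 genes shown. The GC box occurs once before Alox5, 35 bases upstream of the start at its first letter, at 55 and 22 bases before Alox12, and not before Ptgs1, against 32.7% of all windows. The window of Ptgs2 holds a GC box as well. The GATA motif AGATAA (9.99% of windows), the TATA box TATAAA (12.4%) and CCAAT (33.8%) were also searched on both strands and were not found in these 3 windows, and none of the 5 motifs overlaps another there. A match is only a description of the letters and gives no binding.

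The total read count per ganglion was 4125962 to 9903396, with group medians of 9147139 in vehicle, 7235362 in RvD6 and 6862705 in RvD6si. Of the 10 genes, 8 passed the filter on low counts, with totals over all ganglia from 276 reads for Alox15 upward, while Ptgs2 (9 reads in all) and Ltc4s (23 reads) did not. The sensory neuron list was detected in full, with a summed level of 7277 to 14473 counts scaled to library size (CPM), as were the lists for myelinating Schwann cells and satellite glia. RvD6si replicate 15 stood apart within its group, with 2240 CPM of neutrophil and precursor markers against 65.2 to 140.4 in replicates 11 to 14, and results that rest on it are given with and without it. With mRNA from a whole ganglion, fewer cells of a type and less RNA per cell cannot be told apart.

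Whether RvD6 or RvD6si changed these genes relative to vehicle, and whether the stereoisomers differed, was examined in a single edgeR quasi-likelihood fit of the 16567 genes that passed the filter. Mean counts were higher in RvD6 than in vehicle for Alox5, Alox5ap, Alox12, Alox15, Ptgs1, Ptgs2, Ptgds and Pla2g4a. Those of Lta4h and Ltc4s were lower. At a Benjamini-Hochberg adjusted p below 0.05, edgeR called none of the 8 fitted genes in RvD6 against vehicle, where 0% of all genes were called. By an unadjusted p below 0.05, 3 of the 8 (Alox5, Alox5ap and Ptgs1, all higher in RvD6) passed, against 13.6% of all genes. The median log2 fold change of the 8 was 1.07, beside 0.02 over all genes. DESeq2, the alternative tool, called 1 of the 8, Alox5, at its adjusted threshold, against 1.92% of all genes that it adjusted. In RvD6si against vehicle edgeR called 0 of 8 (0.670% of all genes), and 0 of 8 passed without adjustment (2648 of 16567 genes). DESeq2 gave an adjusted p for 5 of the 8 there, not for Alox5, Alox12 and Alox15, and called 0 of these 5, against 8.13% of the 11321 genes that it adjusted. The median log2 fold change of the 8 was then 0.09, beside 0.02 over all genes. In RvD6si against RvD6, edgeR called 0 of 8 (0.235% of all genes), 1 of 8 passed unadjusted (Alox5, lower in RvD6si; 8.82% of all genes) and DESeq2 called that gene (0.936% of all genes). The median log2 fold change of the 8 was -0.83, beside 0.00 over all genes. The comparisons with vehicle share the same 5 vehicle ganglia, and both comparisons with RvD6 share its 5 ganglia.

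**Figure D2:**
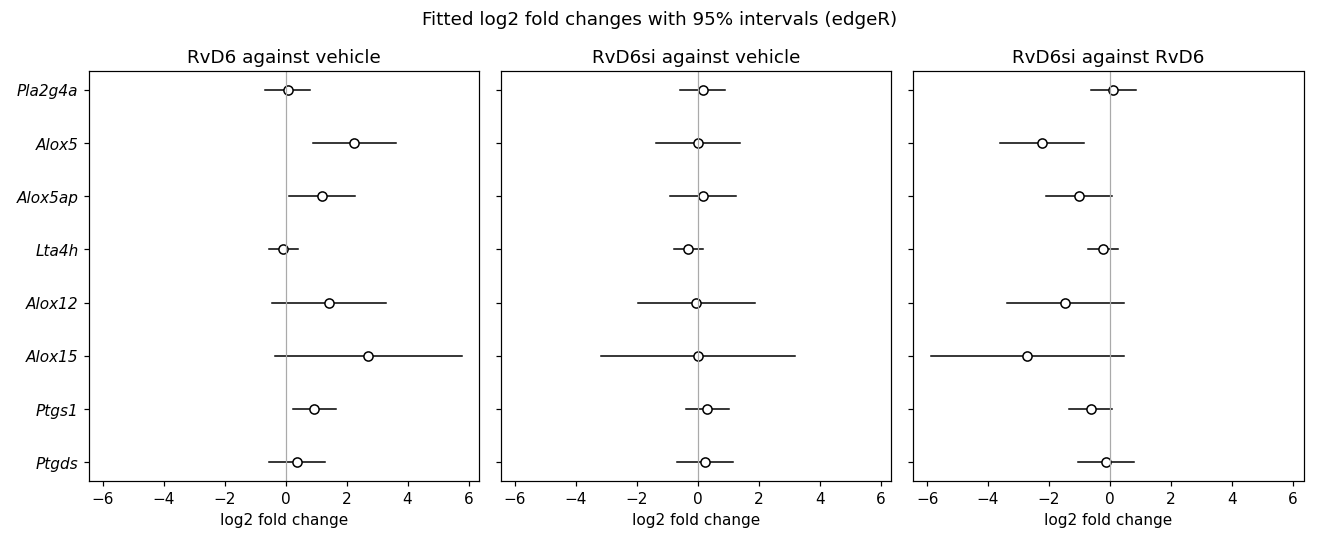
Fitted log2 fold changes of the 8 genes that passed the filter, with 95% intervals (edgeR); open points were not called at an adjusted p below 0.05. In RvD6 against vehicle the intervals of Alox5, Alox5ap and Ptgs1 lie above 0, while in RvD6si against vehicle all 8 intervals cross 0.

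Pla2g4a (ENSMUSG00000056220.14, GRCm38 chromosome 1, 149829618 to 149961290, minus strand), which supplies the substrate of both branches, showed no difference between groups beyond the spread of the ganglia. Its normalized counts (reads divided by the size factors of DESeq2) were 86.5, 50.7, 34.5, 64.0 and 136 in vehicle, 85.2, 46.9, 72.9, 117 and 70.5 in RvD6, and 77.9, 52.7, 75.8, 116 and 97.5 in RvD6si. The 3 groups overlapped over most of their range. In the fit its log2 fold change was 0.06 (95% interval -0.68 to 0.80) for RvD6 against vehicle, 0.17 (-0.57 to 0.91) for RvD6si against vehicle and 0.11 (-0.63 to 0.85) for RvD6si against RvD6. The first turned negative when the trend of counts on gene length was removed (-0.06) or the trend on GC content (-0.04).

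Alox5 (ENSMUSG00000025701.12, chromosome 6, 116410077 to 116461178, minus strand) encodes 5-lipoxygenase, the first enzyme of leukotriene synthesis. It had the smallest unadjusted p of the 8 fitted genes in both comparisons with RvD6. Normalized counts were 2.88, 9.79, 22.5, 26.6 and 14.0 in vehicle, 85.2, 92.8, 19.6, 37.2 and 128 in RvD6, and 13.6, 9.58, 9.13, 4.14 and 42.3 in RvD6si. RvD6 replicates 6, 7, 9 and 10 were above every vehicle ganglion and replicate 8 lay among them, while in RvD6si replicate 15 alone exceeded the vehicle range. The group means were 15.1 ± 9.55 in vehicle, 72.5 ± 43.8 in RvD6 and 15.7 ± 15.2 in RvD6si (SD, n = 5 each). The fitted log2 fold change of RvD6 against vehicle was 2.25 (SE 0.65, 95% interval 0.88 to 3.61), a fold of 4.76, with an adjusted p of 0.174 in edgeR and 0.0308 in DESeq2. Against RvD6, RvD6si was lower by a log2 fold change of -2.24 (SE 0.66, interval -3.62 to -0.86), with an adjusted p of 0.254 in edgeR and 0.0478 in DESeq2. Without RvD6si replicate 15 this difference was -2.98 and its adjusted p in edgeR 0.0397, so that 1 library decided the call. RvD6si against vehicle gave 0.01 (interval -1.37 to 1.39), and -0.73 without replicate 15.

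Alox5ap (ENSMUSG00000060063.9, chromosome 5, 149264767 to 149288153, plus strand) encodes the 5-lipoxygenase activating protein, which presents arachidonic acid to Alox5. Its normalized counts were 23.8, 35.6, 58.6, 41.3 and 21.4 in vehicle, 86.0, 89.2, 39.2, 74.4 and 129.9 in RvD6, and 22.6, 7.19, 30.1, 47.6 and 101 in RvD6si. The same pattern of ganglia was seen as for Alox5: RvD6 replicate 8 was the only RvD6 ganglion within the vehicle range, and RvD6si replicate 15 was the only one above it. In the fit it differed by a log2 fold change of 1.20 (SE 0.51, interval 0.12 to 2.28, edgeR adjusted p 0.318) for RvD6 against vehicle and 0.18 (interval -0.91 to 1.27) for RvD6si against vehicle. For RvD6si against RvD6 it was -1.02 (interval -2.10 to 0.06, edgeR adjusted p 0.589), and -1.63 without RvD6si replicate 15 (adjusted p 0.155). DESeq2 fitted to RvD6 and vehicle alone called Alox5ap at an adjusted p of 0.0495, but not with all 15 ganglia in the fit (0.217). An antisense gene, Gm19719, covers 13.3% of its exonic bases, and without strand the reads of the 2 cannot be told apart there.

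Of the enzymes that act after Alox5, Lta4h (ENSMUSG00000015889.8, chromosome 10, 93453411 to 93484875, plus strand), the hydrolase that makes leukotriene B4, was evenly expressed. Its normalized counts ran from 448 to 874 in vehicle, from 459.5 to 786 in RvD6 and from 269 to 691 in RvD6si, and its coefficient of variation over the 15 ganglia, 24.5%, was the lowest of the 10 genes. Log2 fold changes were -0.08 (interval -0.56 to 0.40) for RvD6, -0.31 (-0.79 to 0.17) for RvD6si and -0.23 (-0.71 to 0.25) for RvD6si against RvD6. Ltc4s (ENSMUSG00000020377.15, chromosome 11, 50236461 to 50238616, minus strand), the synthase of the cysteinyl leukotriene branch, was near the limit of detection. Raw reads were 0, 1, 13, 1 and 2 in vehicle, 1, 0, 1, 0 and 0 in RvD6, and 1, 0, 1, 1 and 1 in RvD6si, so that vehicle replicate 3 held 13 of its 23 reads. The two-sided exact permutation test of normalized counts gave p = 0.167 for RvD6 against vehicle, 0.627 for RvD6si against vehicle and 0.270 for RvD6si against RvD6, where 0.00794 is the smallest p that 5 against 5 allows. The antisense gene Gm26542 covers 26.4% of its exonic bases.

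Alox12 (ENSMUSG00000000320.10, chromosome 11, 70241457 to 70255353, minus strand), the 12-lipoxygenase of platelets, gave normalized counts of 13.0, 24.0, 6.42, 39.4 and 41.9 in vehicle. In RvD6 they were 94.6, 76.6, 40.6, 44.6 and 79.5, and in RvD6si 4.52, 0.799, 0, 21.7 and 99.2. The RvD6 ganglia were all near or above the top of the vehicle range, whereas RvD6si held both the 3 lowest values and, in replicate 15, the highest of all. Between RvD6 and vehicle the log2 fold change was 1.42 (SE 0.90, interval -0.46 to 3.30, edgeR adjusted p 0.512), and between RvD6si and vehicle -0.05 (interval -1.96 to 1.87). The value for RvD6si moved to -1.90 without replicate 15 (edgeR adjusted p 0.271), and that for RvD6si against RvD6 from -1.47 (interval -3.38 to 0.45) to -3.32 (adjusted p 0.0915).

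Alox15 (ENSMUSG00000018924.6, chromosome 11, 70344152 to 70352031, minus strand), the 12/15-lipoxygenase of mouse macrophages and eosinophils, was detected in some ganglia and not in others. Raw reads were 29, 0, 1, 7 and 0 in vehicle, 61, 142, 3, 9 and 4 in RvD6, and 0, 0, 0, 0 and 20 in RvD6si. All RvD6 ganglia had reads, but 2 of them, replicates 6 and 7, held most of the group's total. The log2 fold change of RvD6 against vehicle was 2.71 with a wide interval (SE 1.46, -0.36 to 5.78, edgeR adjusted p 0.429), and it was 1.53 without RvD6 replicate 7 and 4.30 without vehicle replicate 1. All reads of RvD6si came from replicate 15, so its log2 fold changes, 0.00 against vehicle (interval -3.18 to 3.18) and -2.71 against RvD6 (interval -5.87 to 0.45), rest on that library, and without it the group has 0 reads, so that a fitted value is set by the prior count and gives no fold.

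Ptgs1 (ENSMUSG00000047250.13, chromosome 2, 36230426 to 36252272, plus strand) encodes cyclooxygenase 1, the constitutive form. Its normalized counts were 34.6, 22.2, 46.5, 35.4 and 51.0 in vehicle, 84.4, 70.3, 68.6, 68.2 and 76.5 in RvD6, and 33.9, 44.7, 79.4, 53.8 and 22.8 in RvD6si. All 5 RvD6 ganglia were above all 5 vehicle ganglia, a separation that 2.25% of all genes showed in that direction, and Ptgs1 was the only one of the 10 genes to show it. RvD6si overlapped both groups, and its replicate 15 was its lowest ganglion for Ptgs1, unlike for the lipoxygenases. The group means were 38.0 ± 11.3, 73.6 ± 6.90 and 46.9 ± 21.6 (SD, n = 5 each) in vehicle, RvD6 and RvD6si. The log2 fold change of RvD6 against vehicle was 0.94 (SE 0.33, interval 0.24 to 1.64, edgeR adjusted p 0.235), and DESeq2 gave an adjusted p of 0.0998 with all ganglia and 0.0364 with RvD6 and vehicle alone. RvD6si differed from vehicle by 0.31 (interval -0.39 to 1.01) and from RvD6 by -0.63 (interval -1.33 to 0.07). The antisense gene Gm43621 covers 3.81% of its exonic bases.

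Ptgs2 (ENSMUSG00000032487.8, chromosome 1, 150100031 to 150108227, plus strand), the inducible cyclooxygenase 2, was all but absent from the reads on day 12. There were 0 reads in all 5 vehicle ganglia, 2 and 4 reads in RvD6 replicates 6 and 9, and 2 and 1 reads in RvD6si replicates 13 and 15. A count of 0 allows up to 3 reads in a library, so a difference between the groups was not detectable at this depth, and no fold is given. The exact permutation test gave p = 0.444 for each lipid against vehicle and 0.881 for RvD6si against RvD6.

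Ptgds (ENSMUSG00000015090.13, chromosome 2, 25466709 to 25470046, minus strand) encodes the lipocalin-type prostaglandin D synthase, which the meninges and glia express strongly. Its normalized counts were 11040.3, 5250.2, 4095, 2806 and 2244 in vehicle, 3038, 5742, 6006, 12457 and 5839 in RvD6, and 1764, 5459, 8568, 7988 and 6341 in RvD6si. Each group spanned a wide range, and the 3 ranges overlapped almost fully. Log2 fold changes were 0.36 (interval -0.55 to 1.28) for RvD6, 0.24 (-0.67 to 1.15) for RvD6si and -0.12 (-1.03 to 0.79) for RvD6si against RvD6, and the first was 0.00 without RvD6 replicate 9 and 0.86 without vehicle replicate 1.

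**Figure D3:**
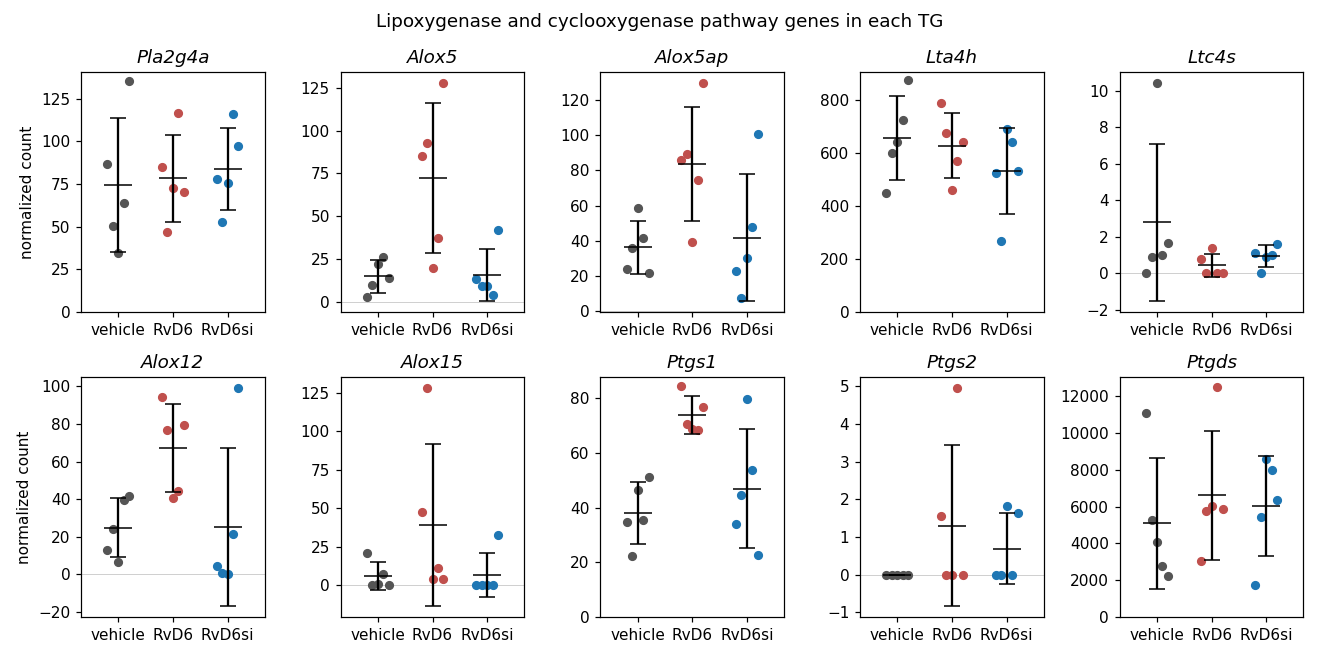
Normalized counts of the 10 genes in each of the 15 ganglia, with 1 point per ganglion in the order of its replicate number and the mean ± SD of the 5 in black. The 5 RvD6 values of Ptgs1 (68.2 to 84.4) lie above the 5 vehicle values (22.2 to 51.0), and RvD6si replicate 15 lies far above its group for Alox5 (42.3), Alox12 (99.2) and Alox15 (32.5).

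The summed levels of neutrophil, platelet, erythroid and mast cell markers did not overlap between RvD6 and vehicle, and were higher in RvD6. Of all single genes, 2.25% were separated in that direction. No like share was computed for sums of several markers, so how unusual these separations are is not known. The 10 neutrophil and precursor markers, all detected in each group, summed to 139 to 698 CPM in vehicle, 806 to 2583 in RvD6 and 65.2 to 2240 in RvD6si. All 10 were higher in RvD6 than in vehicle with an unadjusted p below 0.05 in edgeR, which 13.6% of all genes passed in either direction. After adjustment 0 of them were called (0% of all genes). This was not particular to the neutrophil list. All fitted erythroid (7 of 7), skeletal muscle (6 of 6), eosinophil (4 of 4) and mast cell markers (3 of 3) also passed unadjusted, higher in RvD6. Of the platelet and megakaryocyte markers 3 of 6 passed, and of the B lineage markers 1 of 6. The 7 platelet and megakaryocyte markers summed to 26.2 to 67.2 CPM in vehicle, 78.8 to 185 in RvD6 and 15.7 to 216 in RvD6si, and the 7 erythroid markers to 2382 to 5066, 5754 to 10621 and 936 to 12017 CPM. In the neutrophil, platelet and erythroid lists replicate 15 was the highest RvD6si ganglion. The 6 eosinophil markers summed to 7.65 to 62.4 CPM in vehicle, where Siglecf was at 0, 37.0 to 283 in RvD6 and 7.68 to 121 in RvD6si. The 5 mast cell markers summed to 3.12 to 8.56, 11.1 to 38.5 and 7.95 to 21.4 CPM, and the 7 B lineage markers to 4.01 to 29.3, 19.2 to 71.2 and 4.10 to 53.9 CPM.

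The 4 ganglia with the most neutrophil and precursor markers, RvD6 replicates 6, 7 and 10 and RvD6si replicate 15, held the 4 highest normalized counts of Alox5, of Alox5ap and of Alox12. For Ptgs1 they did not, since RvD6si replicate 15 was near its lowest count. With a score of these markers as a covariate in edgeR, a fit chosen after the data were seen, the log2 fold change of RvD6 against vehicle became 0.69 for Alox5, 0.13 for Alox5ap, -0.62 for Alox12 and -1.33 for Alox15, with edgeR adjusted p from 0.817 to 0.967. For Ptgs1 it became 1.42 (edgeR adjusted p 0.465). The score is itself higher in RvD6, so the covariate also takes up part of any difference between the groups.

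**Figure D4:**
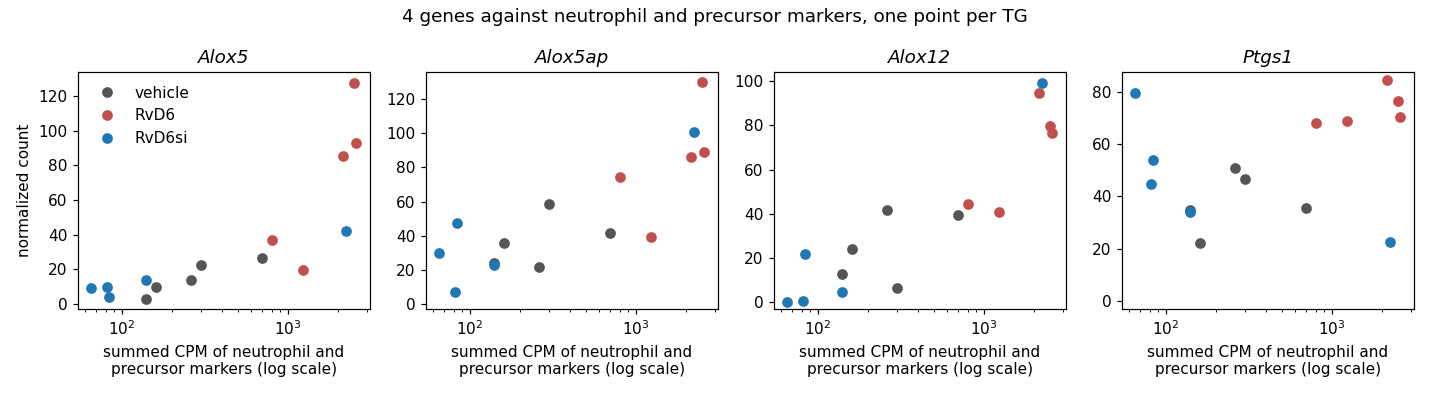
Normalized counts of Alox5, Alox5ap, Alox12 and Ptgs1 against the summed CPM of 10 neutrophil and precursor markers (log scale), with 1 point per ganglion. RvD6si replicate 15, at 2240 CPM, lies among the RvD6 ganglia (806 to 2583 CPM) on the marker axis and has the highest Alox12 count (99.2) and the second lowest Ptgs1 count (22.8).

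Markers of other tissues also varied between the ganglia. The 7 skeletal muscle markers summed to 16.4 to 143 CPM in vehicle, 76.3 to 2256 in RvD6 and 8.61 to 27.2 in RvD6si. The highest muscle values were those of RvD6 replicates 8 and 9, which had the lowest Alox5 counts of the RvD6 group. With a muscle score as the covariate, also chosen after the data were seen, Alox5 gave a log2 fold change of 3.07 for RvD6 against vehicle (edgeR adjusted p 0.370). The 11 sensory neuron markers summed to 11832 to 13375 CPM in vehicle, 7277 to 12721 in RvD6 and 10630 to 14473 in RvD6si. RvD6 replicates 6, 7, 9 and 10 were below every vehicle ganglion, and replicate 8 was not. In edgeR 10 of the 11 were lower in RvD6 than in vehicle, 4 with an unadjusted p below 0.05 (13.6% of all genes in either direction). After adjustment 0 were called. The 9 macrophage markers, at 91.2 to 135, 90.2 to 167 and 79.0 to 143 CPM, overlapped, as did those of endothelium, satellite glia, Schwann cells and fibroblasts. The 6 pituitary markers ran from 9.97 to 3745 CPM in vehicle, 226 to 2300 in RvD6 and 19.9 to 657 in RvD6si, with Lhb at 0. Both scores differ between the groups, so these covariate fits cannot separate the part of other cells from a group difference. The part of the other cells in the values of the 10 genes was not tested.

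The patterns of the genes over the 15 ganglia were compared through Pearson's r of log2 CPM, a description in which all values share libraries and depth. Alox5 and Alox5ap had an r of 0.75, Alox5ap and Alox12 of 0.73 and Alox5 and Alox12 of 0.65, while Ptgs1 reached 0.39 with Alox5 and 0.06 with Alox12. The genes most like Alox5 among all 16567 were Lsp1 (0.92), Slfn4 (0.92) and Lyz2 (0.91). Those most like Alox5ap were Vcam1 (0.93), Lyz1 (0.91) and the platelet marker Ppbp (0.90). Alox12 was closest to Cd33 (0.90), Cxcr2 (0.90) and Klf1 (0.90), and Alox15 to Apol11b (0.89), Dtl (0.84) and Ptpn1 (0.84). Ptgs1 was closest to Olfml3 (0.80), Ogn (0.79) and AI506816 (0.79). The closest genes were Nipsnap3b (0.91), Acot1 (0.90) and Aldh3b1 (0.90) for Lta4h, Gm43848 (0.78), Igfbp2 (0.78) and 2810402E24Rik (0.77) for Ptgds, and Twf2 (0.83), Ddx10 (0.81) and Mcm4 (0.81) for Pla2g4a.

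Around these 10 genes, 59 further genes of the same pathway were listed by role, of which 46 passed the filter. None was called by edgeR in RvD6 against vehicle (0% of all genes), where 6 were higher and 3 lower at an unadjusted p below 0.05 (13.6% of all genes in either direction). In RvD6si against vehicle 1 of the 46 was called (0.670% of all genes), Pnpla8, a calcium-independent phospholipase, with 5 higher and 5 lower unadjusted (2648 of 16567 genes). In RvD6si against RvD6, 0 were called (0.235% of all genes), with 4 higher and 4 lower unadjusted (8.82% of all genes). DESeq2 called 3 of them in RvD6 against vehicle (Pnpla8, Pnpla2 and Hpgds, all higher), where it called 1.92% of the genes that it adjusted. It called 3 in RvD6si against vehicle (Pnpla8 higher, Mgll and Pla2g16 lower), against 8.13%, and 1 between the lipids (Pla2g16, lower in RvD6si), against 0.936%. In RvD6si against vehicle DESeq2 gave no adjusted p for some of the 46, among them Hpgds, Hpgd and Ltb4r1. Fewer than 46 genes therefore stand behind those 3 calls. The median log2 fold change of the 46 lay between -0.05 and 0.03 in the 3 comparisons.

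Pnpla8 rose in RvD6si, where its normalized counts were 893, 818, 657, 881 and 699 against 446, 497, 415, 549 and 383 in vehicle. The log2 fold change was 0.78 (SE 0.16, edgeR adjusted p 0.0325). This call was lost when any one of 7 libraries, vehicle replicates 1 to 5 and RvD6si replicates 11 and 14, was left out, while the log2 fold change of Pnpla8 stayed between 0.73 and 0.86 over all 15 omissions, with an adjusted p of up to 0.103. In RvD6 the counts were 557, 771, 646, 925 and 703, with a log2 fold change of 0.64 against vehicle (edgeR adjusted p 0.119). All 5 were above all vehicle ganglia, a separation that 2.25% of all genes showed in that direction. Pnpla8 was named for its small p, so this separation partly follows from that choice. The lipids differed from each other by 0.14 (interval -0.18 to 0.47). Mgll, the lipase that frees arachidonic acid from 2-arachidonoylglycerol, had normalized counts of 1599 to 2373 in RvD6si and 2570.1 to 3246 in vehicle. Its log2 fold change was -0.50 (edgeR adjusted p 0.0953). Pla2g16, a phospholipase A, had 857 to 1071 in RvD6si and 1296 to 1592 in RvD6. Its log2 fold change between the lipids was -0.53 (edgeR adjusted p 0.0945). Mgll and Pla2g16 were named for a small p against vehicle. The share of all genes with such separated ranges in those comparisons is not given here, so how common they are is left unsaid. Pnpla2, the triglyceride lipase ATGL, gave 1.05 for RvD6 and 0.79 for RvD6si against vehicle (edgeR adjusted p 0.156 and 0.186).

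Downstream of the cyclooxygenases, Hpgds, the hematopoietic prostaglandin D synthase, had normalized counts of 35.0 to 91.9 in RvD6, 2.16 to 23.3 in vehicle and 20.7 to 31.2 in RvD6si. Its log2 fold change was 1.97 for RvD6 against vehicle (edgeR adjusted p 0.125), 0.78 for RvD6si against vehicle (0.457) and -1.19 for RvD6si against RvD6 (0.465). The RvD6 counts of Hpgds were all above those of vehicle, a separation that 2.25% of all genes showed in that direction. Hpgd, which inactivates prostaglandins, gave 2.50 and 2.18 for RvD6 and RvD6si against vehicle (edgeR adjusted p 0.197 and 0.189). The first was 1.65 without RvD6 replicate 9, and the second 1.45 without RvD6si replicate 15. Ptgr1, a reductase that inactivates leukotriene B4 and prostaglandins, gave -0.54 and -0.64 (edgeR adjusted p 0.340 and 0.202). Ltb4r1, the high-affinity leukotriene B4 receptor of leukocytes, had normalized counts of 19.6 to 84.7 in RvD6 and 0 to 14.4 in vehicle. This separation was shown by 2.25% of all genes in that direction. Hpgds and Ltb4r1 were named for a small p in RvD6 against vehicle, so their separation there partly follows from that choice. In RvD6si the counts of Ltb4r1 were 5.65, 0, 0, 3.10 and 47.1, where replicate 15 was again the highest. The log2 fold change of Ltb4r1 in RvD6 against vehicle was 3.36 (interval 0.94 to 5.79, edgeR adjusted p 0.219), and 0.66 with the neutrophil and precursor score as a covariate (edgeR adjusted p 0.899).

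**Figure D5:**
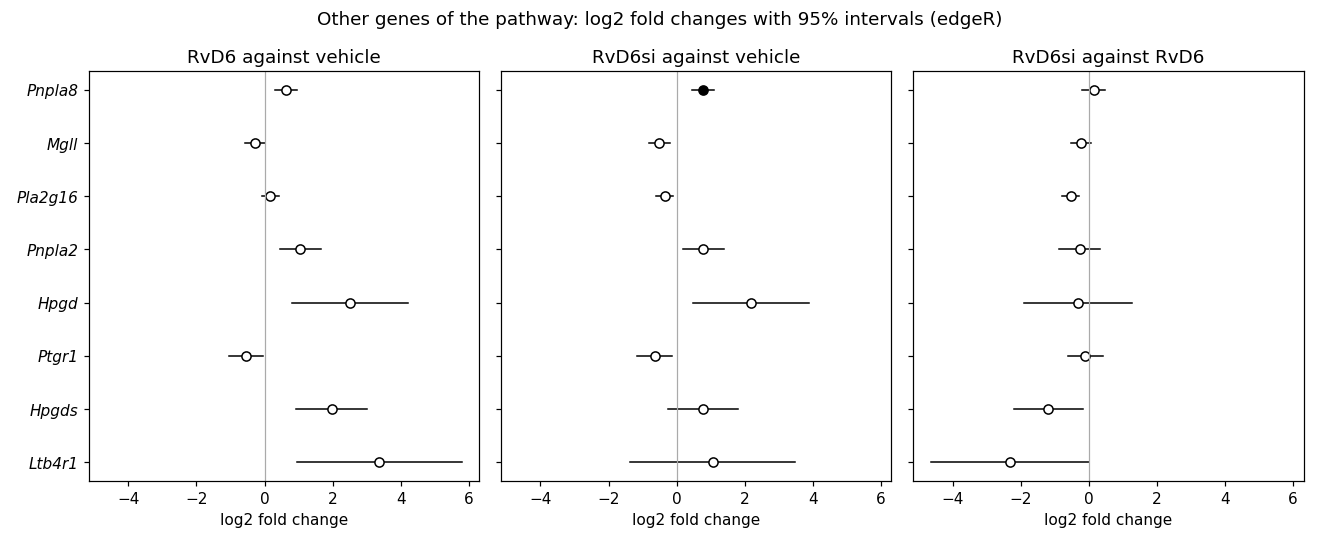
Log2 fold changes with 95% intervals (edgeR) of the 8 other pathway genes named in the text, with the filled point called at an adjusted p below 0.05. Pnpla8 in RvD6si against vehicle (0.78) is the only filled point, and Hpgds (1.97) and Ltb4r1 (3.36) lie to the right of 0 in RvD6 against vehicle.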

How the data were processed

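The samples were 15 right TG, 5 per group, prepared by an adapted Smart-seq2 protocol (oligo-dT priming, amplified cDNA, no strand kept). The deposited values are raw read counts per gene, which the authors made with Rsubread alignment to GRCm38 and featureCounts on the exons of GENCODE release 22. The file header names featureCounts 1.5.0-p1, and the submitters' processing notes name Subread 1.6.5 and R 3.6.1. No strand or multi-mapping option was set.

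Symbols came from GENCODE release 21 (99.7% of genes matched), exon overlaps from the same release and GC content from its longest transcripts (99.9% of tested genes). Tests used R 4.3.3 with edgeR 4.0.16 (quasi-likelihood, TMM, filterByExpr with a minimum count of 10 and total of 15, 3 groups in one fit) and DESeq2 1.42.0 as the alternative, with Benjamini-Hochberg adjustment over all genes tested. Intervals cover 95% by the fit. SE is the log2 contrast divided by the root of F. Genes outside the fit were compared by two-sided exact permutation tests. Log2 CPM used a prior count of 2, and marker scores are mean centred log2 CPM. Figures were drawn with matplotlib 3.10.9 in Python 3.11.15. The steps were tested on simulated counts.

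The genes and lists were chosen with earlier results of these data known. Named genes are the 10 enzymes, pathway genes called by edgeR or among the 6 smallest p per lipid, the 3 closest genes per fitted enzyme, and markers. Replicates are separate mice, and pairs within a group differed by chi-squares of 11.3 to 49.2 per degree of freedom, far above counting error, so no library was a copy. Intervals of single counts would cover counting error only.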

Additional observations from a re-analysis of the deposited data

Results flagged for a closer look

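In 29 sets of 5 normalized counts (1 gene in 1 group), 4 had a sample whose gap to its nearest neighbour passed Dixon's critical value. About 1 in 20 sets of normally distributed values pass it, a rate that need not hold for low counts with zeros. In 3 of the 4 flagged sets the sample was RvD6si replicate 15, with 42.3 for Alox5, 99.2 for Alox12 and 32.5 for Alox15, each the highest of its group. This library also had 2240 CPM of neutrophil and precursor markers and 216 CPM of platelet and megakaryocyte markers, against at most 140.4 and 25.4 in the other RvD6si ganglia. The fourth was vehicle replicate 3, with 10.4 normalized counts of Ltc4s, from 13 reads.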

How the results depend on the processing

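The number of genes called depended on the tool and on single libraries, and the cause was not tested. For RvD6si against vehicle (111 in edgeR), DESeq2 called 920 with all ganglia and 979 with the 2 groups alone, a minimum of 10 counts in every sample gave 315, removal of the gene length trend 63 and the neutrophil score 43, and omission of 1 ganglion 0 (RvD6si replicate 11) to 229 (RvD6 replicate 9). For RvD6 against vehicle (0), DESeq2 called 369 and 664, edgeR with the 2 groups 38, no filter 56, the minimum of 10 counts 24, the neutrophil score 1, the muscle score 2, and omissions 0 to 51 (without RvD6si replicate 15). For RvD6si against RvD6 (39), DESeq2 called 185 and 182, edgeR with the 2 groups 17, no filter 59, the minimum of 10 counts 23, the neutrophil score 1, the muscle score 2, and omissions 2 (RvD6si replicates 11, 13 or 14) to 156 (without RvD6si replicate 15).

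Every log2 fold change of the enzymes that turned sign was uncalled in edgeR. For RvD6si against vehicle, Alox15 gave 0.16 and 0.17 in DESeq2 (all ganglia, 2 groups), 0.0025 with RLE and 0.0502 and 0.0495 without the length and GC trends, Alox12 0.0048 in DESeq2 with 2 groups and 0.0019 without the GC trend, Alox5 -0.051 without the length trend and -0.42 with the muscle score, and Alox5ap -0.11 with the muscle score. For RvD6 against vehicle, Pla2g4a gave -0.0606 and -0.0351 without the length and GC trends and -0.60 with the muscle score, which also turned Lta4h to 0.036 and Ptgds to -0.18, and the neutrophil score turned Alox12 to -0.62 and Alox15 to -1.33. For RvD6si against RvD6, Alox5ap gave 0.0516 with the neutrophil score and Ptgds 0.54 with the muscle score. Omitting 1 ganglion gave, for RvD6si against vehicle, -0.73 to 0.31 for Alox5, -0.43 to 0.46 for Alox5ap, -1.90 to 0.28 for Alox12, -5.68 to 1.58 for Alox15 (the lowest, without RvD6si replicate 15, leaves that group at 0 reads and is set by the prior count, so it is no fold), -0.0079 to 0.51 for Pla2g4a and differences of -2.55 to 0.0608 normalized counts for Ltc4s. For RvD6 against vehicle it gave -0.20 to 0.0419 for Lta4h and -0.13 to 0.39 for Pla2g4a, and for RvD6si against RvD6 -0.30 to 0.24 for Ptgds, -0.0402 to 0.30 for Pla2g4a and a difference of -0.94 to 0.30 for Ptgs2. The exact test of Ltc4s in RvD6 against vehicle gave p = 0.0317 without vehicle replicate 1. Pnpla8 in RvD6si against vehicle lost its call without the length trend (0.64) and with the neutrophil score (0.76). Without RvD6si replicate 15 the mean level in RvD6si was 0.231 RPKM for Alox12, in place of 0.861, and 0 for Alox15, in place of 0.369. No paired analysis was possible because the groups share no replicate numbers. Genes with few reads, Ptgs2, Ltc4s and Alox15, are limited by depth.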
